A study of Mus musculus with 34 samples.

Results

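The genes described here are 10 genes of the metal and oxidative stress responses, taken by symbol from the 52661 genes of the deposited expression table: the metallothioneins Mt1 and Mt2, the zinc exporter Slc30a1, and the genes Hmox1, Nqo1, Gclm, Gclc, Srxn1, Txnrd1 and Osgin1. All 10 were found, each as 1 gene. They were measured by polyA+ RNA-seq in N2A cells, a mouse neuroblastoma line, treated for 24 h with compounds that had been picked for raising or lowering the splicing of microexons, very short exons typical of neurons. Every culture, the controls included, held 0.4% DMSO. There were 34 libraries in 28 groups: 3 with DMSO alone, 2 with each of the 4 histone deacetylase (HDAC) inhibitors, and 1 with each of the other 23 compounds.

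Of the 27 compounds, 17 are activators and 10 are inhibitors of microexon splicing. The HDAC inhibitors, all activators, were Vorinostat at 2.5 µM (2 µM in another of the sources used here), CI-994 at 5 µM, and BRD4884 and BRD6688 at 10 µM each. The kinase inhibitors among the activators were A-443654 at 0.25 µM, NVP-AEW-541 and Trametinib at 1 µM, Crenolanib and SCH-772984 at 2 µM, and GNF-5837 at 0.5 µM. The other activators were drug-like screening compounds with no known target. They were BTB12021 at 20 µM, S02045 at 5 µM, and RDR00572, BTBS00065, SEW06315 and RH01954 at 2.5 µM. BTB13120 was another, and its dose is not given here. The inhibitors were 5-azacytidine at 5 µM, the kinase inhibitor MK-1775 at 2 µM, and the drug-like compounds AW00693 and JFD00822 at 5 µM, SPB00858 at 20 µM, and T5635931, T5758020, T5963258, T5985871 and the compound labelled OICR.24K.Dissimilar_18_P14 at 6.7 µM. The last is a ChemBridge screening compound and is called the ChemBridge compound here. A compound with 1 library has no replicate check of its own, and doses differ between compounds.

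The libraries carried the transcripts of sympathetic neuroblasts. In DMSO, Hand2 stood at 247.51 RPKM, Gata2 at 47.92, Chga at 94.8 and Tubb3 at 395.99. Markers of blood, glial, endothelial, fibroblast and liver cells lay at or below 1.28 RPKM in DMSO. In bulk libraries, fewer cells with a transcript and less of it per cell cannot be told apart.

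In the metal response, free zinc or cadmium activates the transcription factor MTF-1, which binds metal response elements and turns on the metallothioneins, small cysteine-rich proteins that bind the metal, and Slc30a1, which pumps zinc out of the cell. In the oxidative and electrophile response, KEAP1 normally marks the transcription factor NRF2 for destruction; when its cysteines are modified, NRF2 accumulates and, with small MAF partners, acts through antioxidant response elements on genes of glutathione synthesis (Gclc and Gclm), thiol repair (Srxn1 and Txnrd1), quinone reduction (Nqo1) and haem breakdown (Hmox1). Hmox1 is also held down by the haem-sensing repressor BACH1 and can be raised by heat shock, and Osgin1 encodes an oxidative stress induced growth inhibitor.

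By RPKM, reads per kilobase of transcript and per 1000000 reads, which the authors give as 1 value per condition, the 10 genes fell into an abundant and a near-silent set in DMSO. Txnrd1 stood at 173.43 RPKM, Gclm at 110.51, Hmox1 at 94.63 and Gclc at 46.91. Srxn1 at 12.65, Nqo1 at 11.74 and Slc30a1 at 10.71 were an order lower, and Mt1 at 0.31, Osgin1 at 0.29 and Mt2 at 0.17 were close to silent. A merged value has no replicate error, so neighbours in this order cannot be separated by their spread.

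Ratios to DMSO are log2 with 0.5 RPKM added to both values, and a gene counts as changed when it lies beyond 2-fold and either of its values exceeds 5 RPKM. The 7 genes from Slc30a1 to Txnrd1 in the list passed that limit with all 27 compounds, Osgin1 with 3, Mt1 with 2 and Mt2 with none, which makes 194 of 270 gene and compound pairs. Mt1 and Osgin1 passed only through the compound, so they had to differ, and their 5 pairs above 2-fold say nothing more. In all, 10 pairs, those 5 included, lay more than 2-fold above DMSO and 6 more than 2-fold below it, where over all genes and compounds 2.67% of values lay above and 3.86% below.

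**Figure D1:**
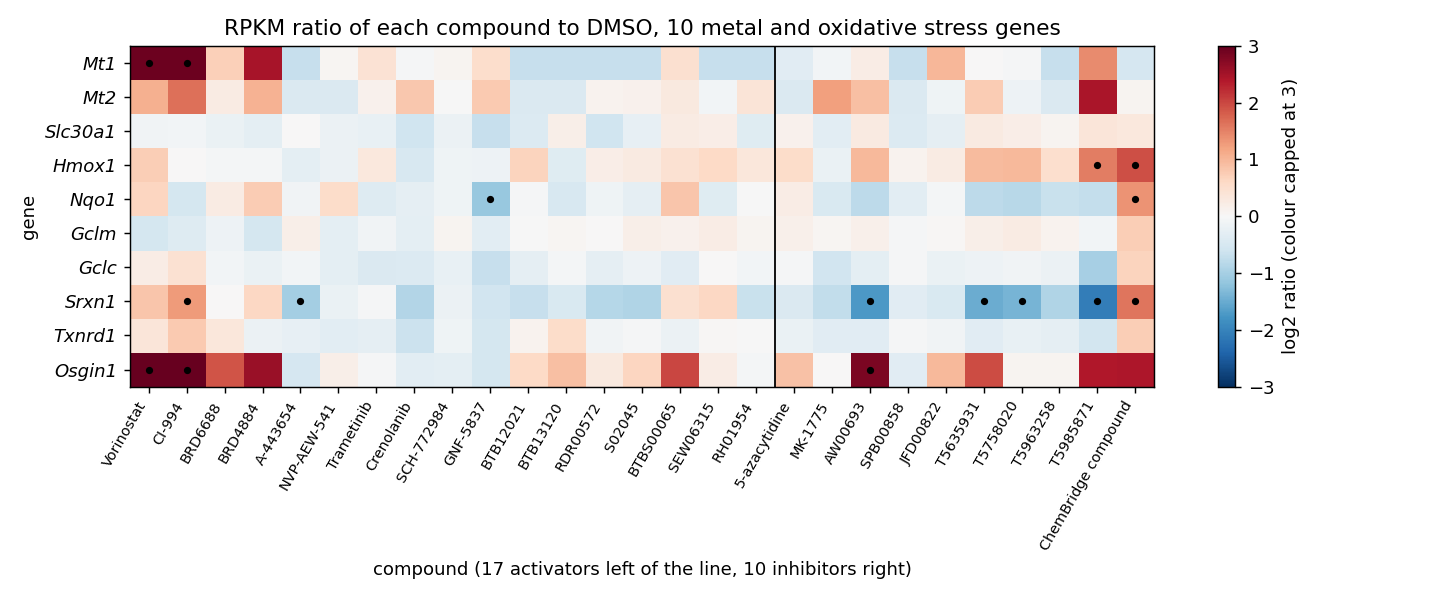
Heat map of the log2 ratio of RPKM in each compound to DMSO for the 10 genes (rows) and 27 compounds (columns, activators left of the line), with colour capped at 3 and a dot where the gene counts as changed. Mt1 and Osgin1 are deepest red with Vorinostat and CI-994, Srxn1 has a dot on the blue side with 5 compounds, and the ChemBridge compound is red for 7 genes from Hmox1 to Osgin1.

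To set these ratios against the spread between libraries, reads across exon junctions were summed per gene in each of the 34 libraries and given per 1000000 of all such reads (spliced CPM). Spliced CPM are not scaled to length and are compared within a gene only. limma was fitted to log2(spliced CPM + 0.5) over all 10488 genes with a mean of at least 1 CPM, and a gene is called at a Benjamini-Hochberg adjusted p below 0.05 over all of them. Of the 10 genes, 8 were tested; Mt1 and Mt2 had too few reads. For a compound with 1 library, the test assumes that the library varies as the replicated groups do. The 8 genes and 27 compounds gave 58 calls above and 21 below DMSO among 216 pairs, beside 13.5% of all gene and compound pairs called above and 12% below. Osgin1, with a mean of 0.362 CPM in DMSO, was tested only because treated libraries lifted its mean above 1 CPM, so its 14 calls above lend no support. Without it there were 44 calls above and 21 below among 189 pairs. The 21 calls below DMSO were 12 without DMSO B or DMSO C and 32 without Vorinostat B. At least 1 of the 8 was called with 22 compounds, with JFD00822 through Osgin1 alone. The other 5 were RDR00572, S02045, RH01954, SCH-772984 and SPB00858, with which limma at an unadjusted p under 0.05 picked 1, 1, 3, 0 and 0 of the 8.

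**Figure D2:**
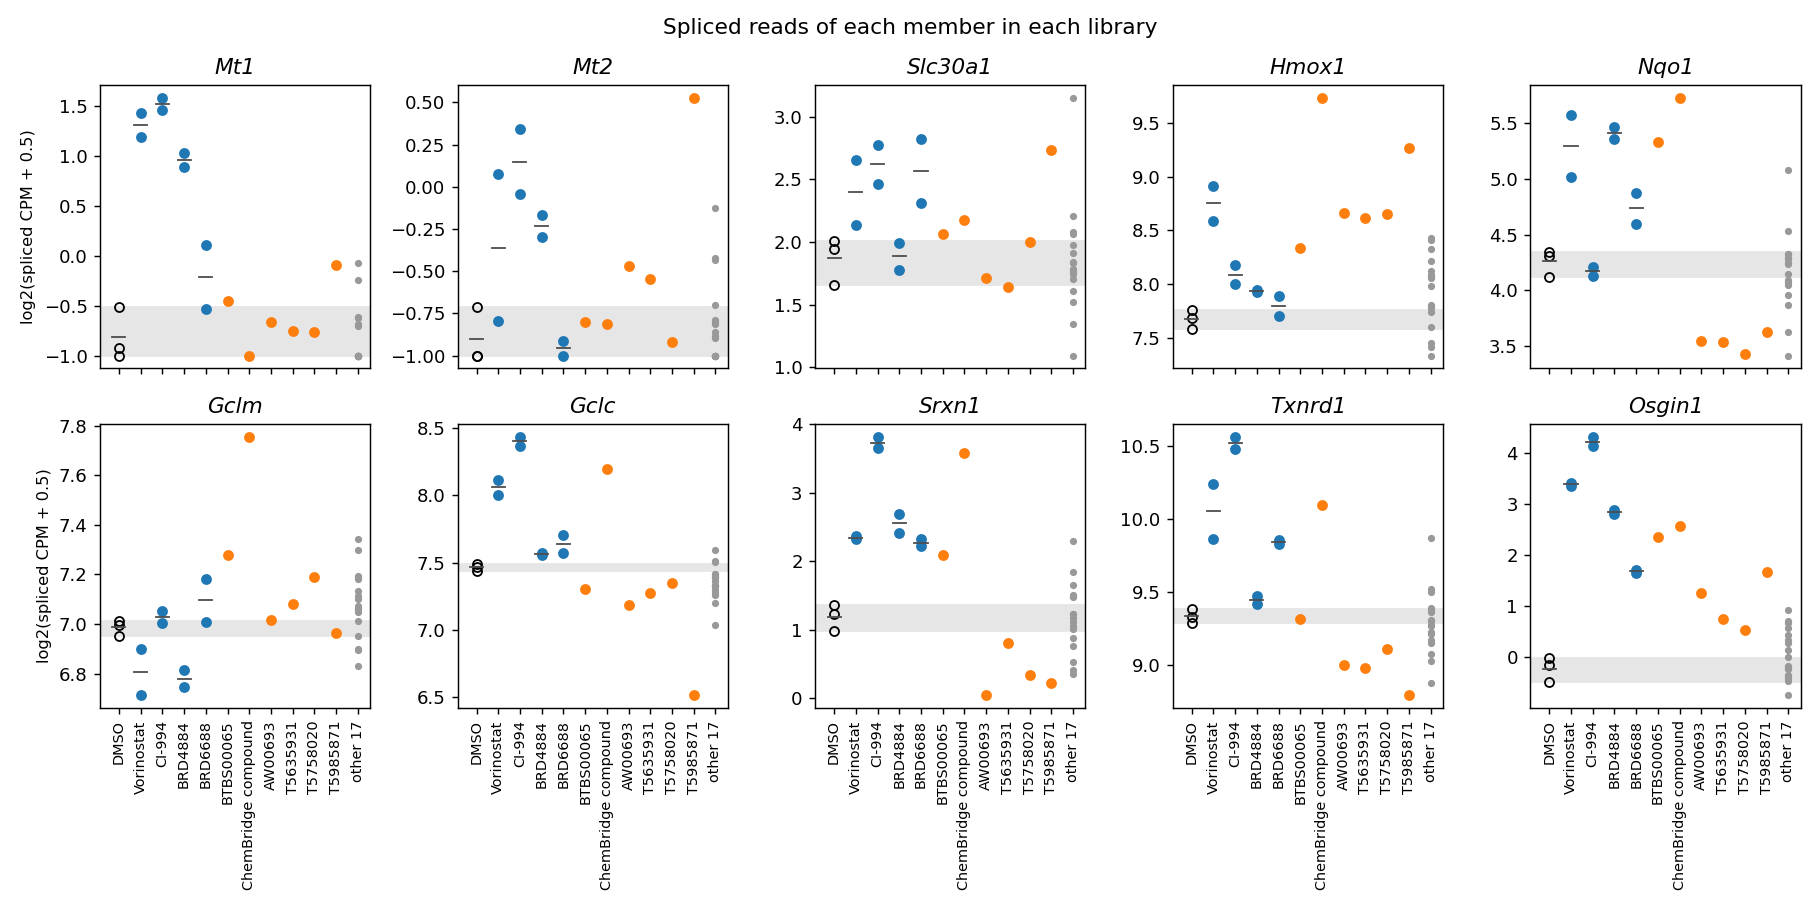
Spliced reads of each of the 10 genes in each library, as log2(spliced CPM + 0.5), with 1 panel per gene; open circles are the 3 DMSO libraries, the grey band is their range, bars are group means of the replicated treatments, and the small grey points at the right are the libraries of the 17 compounds not shown by name. Osgin1 lies above the band with all 10 named compounds, and Srxn1 lies below it with AW00693, T5635931, T5758020 and T5985871.

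The metallothioneins Mt1 and Mt2 were nearly silent in DMSO and reached their highest levels with HDAC inhibitors and T5985871. Mt1 stood at 5.76 RPKM with Vorinostat, 5.72 with CI-994, 3.97 with BRD4884, 1.68 with T5985871, 1.12 with JFD00822 and 0.84 with BRD6688, and was listed at 0 with 9 compounds. Mt2 stood at 3.13 RPKM with T5985871, 1.61 with CI-994, 1.07 with MK-1775, 0.90 with Vorinostat and 0.89 with BRD4884, and was listed at 0 with 7 compounds. The highest level of either gene, 5.76 RPKM, was thus below the level of Slc30a1 in DMSO.

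The single libraries gave like levels of Mt1 with each of Vorinostat, CI-994 and BRD4884. Its spliced reads were 0.199, 0.0276 and 0 CPM in DMSO A, B and C, from 8.24, 1 and 0 reads after mappability correction. They were 2.256 and 2.498 CPM with CI-994, 2.20 and 1.79 with Vorinostat, 1.36 and 1.54 with BRD4884, and 0.575 and 0.191 with BRD6688. All libraries of the first 3 HDAC inhibitors lay above all of DMSO, whereas those of BRD6688 did not. Mt2 had 0, 0.110 and 0 CPM in DMSO, 0.766 and 0.469 with CI-994, 0.392 and 0.314 with BRD4884, and 0.553 and 0.0755 with Vorinostat, of whose libraries 1 lay within the DMSO range and 1 above it. With T5985871 it had 0.941 CPM, from 24 reads in 1 library. Mt1 and Mt2 are close paralogs, and reads from their shared stretches could be assigned to either gene.

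Transcripts of other cell types were also higher where Mt1 was. The 8 markers of blood, glial, endothelial, fibroblast and liver cells summed to 3 RPKM in DMSO with 2 of them at 0, and to 41.92 with Vorinostat, 29.41 with CI-994, 15.56 with BRD4884 and 9.5 with T5985871. They summed to between 2.49 and 7.81 with the other 23 compounds. Hba-a1, a globin, at 27.54 RPKM with Vorinostat, and Col1a1, a collagen, at 11.67 with CI-994 made up much of this, whereas Alb stayed at or below 0.06 and Ptprc at or below 0.33. Their part in the metallothionein and Osgin1 levels was not tested.

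The promoters of the 3 metal response genes are printed because MTF-1 acts through elements found there. They are the 250 bases before the RefSeq start on GRCm38.p6, 5′ to 3′, all on the plus strand, chr8:94178839-94179088 for Mt1, chr8:94172368-94172617 for Mt2 and chr1:191906531-191906780 for Slc30a1. Capitals mark the core of the metal response element, searched as TGCACNC and TGCGCNC on both strands.
Mt1: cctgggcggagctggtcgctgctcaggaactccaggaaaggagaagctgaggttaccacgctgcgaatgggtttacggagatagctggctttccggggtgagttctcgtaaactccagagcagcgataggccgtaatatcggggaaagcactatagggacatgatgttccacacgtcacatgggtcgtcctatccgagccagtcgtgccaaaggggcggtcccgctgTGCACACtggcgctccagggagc
Mt2: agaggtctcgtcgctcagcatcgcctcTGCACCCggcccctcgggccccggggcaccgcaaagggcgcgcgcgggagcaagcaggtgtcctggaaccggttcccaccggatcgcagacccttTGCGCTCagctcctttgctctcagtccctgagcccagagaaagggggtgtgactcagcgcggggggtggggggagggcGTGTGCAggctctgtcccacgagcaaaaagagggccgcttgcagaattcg
Slc30a1: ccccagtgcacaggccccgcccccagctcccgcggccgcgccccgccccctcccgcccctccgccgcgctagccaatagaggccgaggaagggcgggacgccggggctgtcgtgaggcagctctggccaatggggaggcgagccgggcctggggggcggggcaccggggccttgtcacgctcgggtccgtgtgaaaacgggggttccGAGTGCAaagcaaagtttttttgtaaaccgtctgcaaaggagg
With the 50 bases after the start included, the core was found 3 times for Mt1, 4 times for Mt2 and 2 times for Slc30a1, and 1, 3 and 1 of these lie in the bases printed. It is not particular to these genes: it was also found 3 times for Gclm and 1 time for Srxn1, but not for Nqo1, Txnrd1 or Osgin1. Among 32851 mouse promoter windows of the same 300 bases, 25.7% held it at least once, 7.11% at least 2 times, 1.97% at least 3 times and 0.52% at least 4 times. A match is a run of letters and no evidence of binding.

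Slc30a1, which exports zinc, stayed within 2-fold of DMSO by RPKM: it ranged from 6.41 with GNF-5837 to 13.86 with T5985871, around 10.71 in DMSO. Its spliced reads were few, at 3.52, 2.66 and 3.36 CPM in DMSO. They were 8.37 CPM with BTB13120, a log2 difference of 1.28 ± 0.27 (SE, limma adjusted p = 0.00435), and 6.15 with T5985871, a difference of 0.86 ± 0.27 (adjusted p = 0.0165). With CI-994 both libraries lay above DMSO, at 6.35 and 5.02 (log2 difference 0.75 ± 0.22, adjusted p = 0.00618), as they did with BRD6688, at 4.46 and 6.57 (0.70 ± 0.22, adjusted p = 0.0121).

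The RPKM of Slc30a1 did not move with the spliced reads in these treatments. Its log2 RPKM ratio was -0.08 with CI-994, -0.21 with BRD6688, -0.09 with Vorinostat and 0.17 with BTB13120. Slc30a1 has 1 annotated intron, so its spliced reads sample 1 junction, whereas RPKM draws on the whole transcript. The readouts also differed over all genes: the median of spliced minus RPKM log2 ratios was 0.36 with CI-994, 0.33 with Vorinostat and 0.19 with BRD6688. Only the direction seen with T5985871 and BTB13120 was shared by both measures, and the cause of the gap was not tested.

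Hmox1, haem oxygenase 1, breaks down haem to biliverdin, iron and carbon monoxide, and was the member raised by the most compounds along with Osgin1. By RPKM it stood at 362.2 with the ChemBridge compound and 273.09 with T5985871, 3.81-fold and 2.88-fold DMSO, and just under 2-fold at 187.0 with T5758020, 186.23 with AW00693 and 184.04 with T5635931. Its lowest value was 68.04 with Crenolanib. In spliced reads it lay at 191, 205 and 216 CPM in DMSO, and at 851 with the ChemBridge compound, a log2 difference of 2.06 ± 0.12 (SE, limma adjusted p = 1.46e-06).

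T5985871 gave Hmox1 615 spliced CPM (log2 difference 1.59 ± 0.12, adjusted p = 5.02e-07). AW00693, T5758020 and T5635931 gave 405, 402 and 392 CPM, differences of 0.99, 0.98 and 0.94 with adjusted p of 7.85e-05, 0.000188 and 0.00023. Both Vorinostat libraries lay above DMSO, at 482 and 385 (1.08 ± 0.10, adjusted p = 2.23e-07), but the 2 libraries differed between themselves more than the DMSO libraries did. In all, Hmox1 was called above DMSO with 14 of 27 compounds and below with BTB13120, at 161 CPM (-0.34 ± 0.12, adjusted p = 0.0469), a call lost with size factors. With BRD4884 the call above DMSO (0.26, adjusted p = 0.0301) went with a log2 RPKM ratio of -0.05, and was also lost with size factors.

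Srxn1, sulfiredoxin, which reduces over-oxidised peroxiredoxins, moved in both directions. Its RPKM was 39.5 with the ChemBridge compound and 31.26 with CI-994, and 2.63 with T5985871, 3.46 with AW00693, 4.15 with T5635931, 4.48 with T5758020 and 5.94 with A-443654, around 12.65 in DMSO. Against DMSO, these 5 low values are log2 ratios of -2.07, -1.73, -1.50, -1.40 and -1.03. Just inside the limit lies A-443654, and just outside it Srxn1 with T5963258 and S02045, each at 6.55 RPKM and a log2 ratio of -0.90.

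In single libraries, Srxn1 had 1.85, 1.47 and 2.08 spliced CPM in DMSO, from 76.53, 53.46 and 42.53 reads. It had 13.6 and 12.1 CPM with CI-994 (log2 difference 2.54 ± 0.18, adjusted p = 2.23e-08) and 11.5 with the ChemBridge compound (2.39 ± 0.23, adjusted p = 4.51e-05). BRD4884 gave 4.83 and 5.97, Vorinostat 4.50 and 4.66, and BRD6688 4.17 and 4.51, all 6 libraries above all 3 of DMSO. On the low side, AW00693 gave 0.538 (-1.14 ± 0.23, adjusted p = 0.00213), T5985871 0.672 (-0.96, adjusted p = 0.0029), T5758020 0.770 (-0.85, adjusted p = 0.0199) and A-443654 0.781 (-0.84, adjusted p = 0.0283). T5635931, at 1.26, was not called (-0.38, adjusted p = 0.26).

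The 2 readouts of Srxn1 parted in some treatments, and it too has 1 annotated intron. With BTB13120 it had 4.42 spliced CPM (log2 difference 1.11 ± 0.23, adjusted p = 0.0036) but 9.08 RPKM, a log2 ratio of -0.46. With BRD6688 the spliced difference was 1.08 and the RPKM ratio 0.01. Among genes with 1 or 2 introns, the gap between the readouts of Srxn1 lay above the 90th percentile in 19 of 27 compounds. The lower values with AW00693, T5985871, T5758020 and A-443654 and the higher ones with CI-994, the ChemBridge compound, Vorinostat and BRD4884 had the same direction in both.

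**Figure D3:**
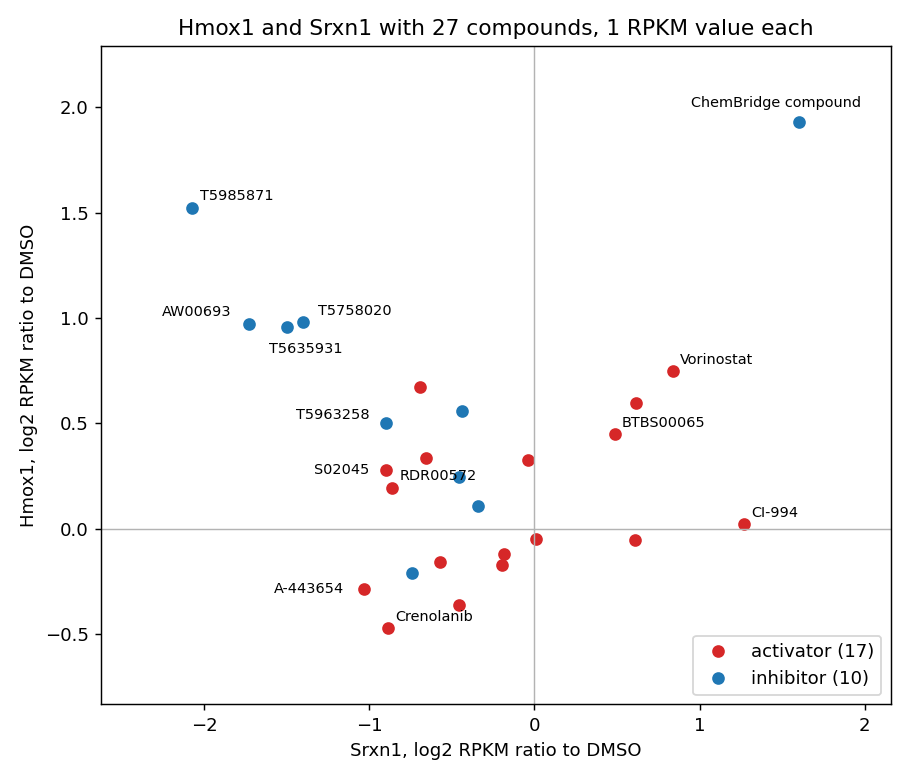
Log2 RPKM ratio to DMSO of Srxn1 (x axis) against that of Hmox1 (y axis), with 1 point per compound, activators in red and inhibitors in blue. T5985871, AW00693, T5635931 and T5758020 lie at the upper left, with Hmox1 between 0.96 and 1.52 and Srxn1 between -2.07 and -1.40, whereas the ChemBridge compound lies at the upper right.

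Txnrd1, cytosolic thioredoxin reductase, was the most abundant member and moved less. It stood at 297.37 RPKM with CI-994, 289.84 with the ChemBridge compound and 252.83 with BTB13120, and at 111.11 with Crenolanib and 117.69 with T5985871. Its spliced reads were 641, 624 and 665 CPM in DMSO, and 1421 and 1507 with CI-994, a log2 difference of 1.19 ± 0.09 (SE, limma adjusted p = 3.73e-08). The ChemBridge compound gave 1094 (0.77 ± 0.11, adjusted p = 0.000809), and T5985871 443 (-0.54 ± 0.11, adjusted p = 0.00123). In all it was called above DMSO with 5 compounds and below with 5.

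The subunits of glutamate-cysteine ligase, which makes the first bond of glutathione, did not move as a pair. Gclc, the catalytic subunit, had 173, 177 and 179 spliced CPM in DMSO and rose with CI-994, to 345 and 330 (log2 difference 0.93 ± 0.07, adjusted p = 2.22e-08), with Vorinostat, to 256 and 277 (0.59, adjusted p = 2.16e-06), and with the ChemBridge compound, to 293 (0.73, adjusted p = 0.000155). It fell with T5985871, to 91.1 CPM (-0.95 ± 0.08, adjusted p = 1.40e-06), where RPKM was 23.21 beside 46.91 in DMSO, just short of 2-fold.

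Gclm, the modifier subunit, had 123, 128 and 127 CPM in DMSO and rose most with the ChemBridge compound, to 215 (0.77 ± 0.10, adjusted p = 0.000318), where RPKM was 186.02. It was called above DMSO with none of the HDAC inhibitors: it stood at 128 and 132 with CI-994 (0.04 ± 0.08, adjusted p = 0.62), at 112 and 107 with BRD4884 (-0.21, adjusted p = 0.0335) and at 104 and 119 with Vorinostat (-0.18, adjusted p = 0.049), where the call was lost with size factors. With BRD6688 it stood at 145 and 128 (0.11, 95% interval -0.06 to 0.28, adjusted p = 0.23). The 95% interval of the CI-994 difference ran from -0.12 to 0.21. With T5985871, where Gclc fell, Gclm stayed near DMSO at 124 CPM (log2 difference -0.02) and 104.53 RPKM.

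Nqo1, a quinone reductase and a common marker of NRF2 activity, rose with the ChemBridge compound, BRD4884, BTBS00065, Vorinostat, NVP-AEW-541 and BRD6688. Its spliced reads were 16.9, 19.9 and 19.3 CPM in DMSO, and 52.6 with the ChemBridge compound (log2 difference 1.47 ± 0.19, adjusted p = 0.000402), where RPKM went from 11.74 to 30.49. BRD4884 gave 40.7 and 43.7 (1.16 ± 0.15, adjusted p = 2.35e-05), Vorinostat 47.16 and 31.97 (1.04, adjusted p = 3.21e-05) and BTBS00065 39.8 (1.08, adjusted p = 0.00134). CI-994, which gave the highest Srxn1, Gclc and Txnrd1 in spliced reads, left Nqo1 within the DMSO range at 18.04 and 17 (-0.09, 95% interval -0.42 to 0.24). Nqo1 fell with GNF-5837, to 10.1 (-0.85 ± 0.19, adjusted p = 0.00346), and with AW00693, T5635931, T5758020 and T5985871, to between 10.2 and 11.8; the call with T5985871 was lost with size factors (-0.42). Its RPKM with GNF-5837 was 5.07, a log2 ratio of -1.14.

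Osgin1 was near silent in DMSO and called above it with 14 compounds. These calls are a description, since it passed the filter of limma through the compounds with which it is high. Its spliced reads were 0.483, 0.213 and 0.392 CPM in DMSO, from 20, 7.71 and 8 reads, and rose to 17.1 and 19.5 with CI-994 (4.45 ± 0.19 on the log2 scale, adjusted p = 2.13e-10). Vorinostat gave 9.83 and 10.2, BRD4884 6.48 and 6.86, BRD6688 2.76 and 2.66, the ChemBridge compound 5.43, BTBS00065 4.62, T5985871 2.70 and AW00693 1.89. The largest RPKM values were 15.73 with CI-994, 7.67 with Vorinostat and 5.14 with AW00693, against 0.29 in DMSO. The log2 differences understate folds from such a base, because 0.5 CPM was added to each value.

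Srxn1 and Osgin1, which gave the highest folds in spliced reads, are shown with Gclm, which was called above DMSO with no HDAC inhibitor, by the 250 bases before their RefSeq start on GRCm38.p6, all on the plus strand, at chr2:152105274-152105523, chr8:119436897-119437146 and chr3:122245307-122245556. Capitals mark the core of the antioxidant response element, TGACNNNGC, or the form that also holds an AP-1 site, TGANTCAGC, on either strand; the latter was added with these promoters in view.
Srxn1: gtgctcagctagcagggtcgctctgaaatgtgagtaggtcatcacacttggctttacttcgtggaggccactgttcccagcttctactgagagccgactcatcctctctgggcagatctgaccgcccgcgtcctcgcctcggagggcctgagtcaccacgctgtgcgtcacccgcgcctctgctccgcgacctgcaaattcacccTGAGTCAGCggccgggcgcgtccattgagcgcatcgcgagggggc
Osgin1: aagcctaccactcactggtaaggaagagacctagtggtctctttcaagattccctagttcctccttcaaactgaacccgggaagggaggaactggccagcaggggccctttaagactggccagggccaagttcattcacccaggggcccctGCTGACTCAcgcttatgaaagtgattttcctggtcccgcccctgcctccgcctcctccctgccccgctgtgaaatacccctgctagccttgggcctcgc
Gclm: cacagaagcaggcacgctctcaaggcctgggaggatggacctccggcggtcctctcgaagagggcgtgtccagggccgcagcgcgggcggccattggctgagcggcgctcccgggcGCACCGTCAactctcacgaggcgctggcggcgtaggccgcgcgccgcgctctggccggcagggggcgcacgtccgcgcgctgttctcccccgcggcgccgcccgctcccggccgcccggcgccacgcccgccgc
Over 300 bases, the joint form was found 1 time each for Srxn1, Osgin1 and Mt2, against 1.19% of all mouse promoter windows. The plain core was found 1 time each for Srxn1 (after the start), Gclm, Slc30a1, Mt2, where it is the same run as the joint form, and 1 of the 3 Txnrd1 starts, against 12.39% of windows. The AP-1 site TGANTCA alone lies in 7.81% of windows and was found 2 times for Srxn1. Neither form was found for Nqo1 or Mt1 in these windows. RefSeq promoters were matched for 8 of the 10 genes, all but Hmox1 and Gclc.

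With the ChemBridge compound, all 6 genes of the oxidative stress response other than Osgin1 were called above DMSO, the zinc exporter Slc30a1 was not called, and none was called below, where 6.49% of all genes were called above. By RPKM, Hmox1, Srxn1 and Nqo1 lay more than 2-fold above DMSO, with 1.21% of all genes above 2-fold. The median log2 RPKM ratio of the 7 members that passed the RPKM limit was 0.75 and that of all expressed genes -0.06. Mt1 and Mt2 stood at 0.07 and 0.21 RPKM, as near to silent as in DMSO. Osgin1 was called too, and is left out of this and the following counts by compound unless stated. BTBS00065 gave 4 calls above (Hmox1, Nqo1, Gclm and Srxn1) where 19.7% of all genes were called above.

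With T5985871, AW00693, T5635931 and T5758020, all inhibitors, the members divided: Hmox1 was called above DMSO with all 4 and Nqo1 below with all 4. Srxn1 was called below with T5985871, AW00693 and T5758020, Txnrd1 with T5985871, AW00693 and T5635931, and Gclc with T5985871 and AW00693. T5985871 gave 2 calls above (17.7% of all genes) and 4 below (36.9%), and AW00693 1 above (11.2%) and 4 below (21.5%). T5635931 gave 1 above (7.87%) and 2 below (13.8%), and T5758020 1 above (6.52%) and 2 below (13.1%). By RPKM, T5985871 had Hmox1 as 1 member above 2-fold (6.05% of all genes) and Srxn1 as 1 below (8.41%). The median log2 difference of all genes tested with T5985871 was -0.18 in spliced reads, and 0.03 with size factors.

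With the HDAC inhibitors, large shares of all genes were called, and the members' counts were read against that. Vorinostat gave 6 calls above and 1 below among 7 members, where 39.9% of all genes were called above and 36.4% below. CI-994 gave 5 above (39.5%), BRD6688 5 above (39.7%), and BRD4884 3 above (39.6%) and 1 below (20.9%). With Osgin1 counted, the 5 calls of BRD4884 were 3 without DMSO A, DMSO B or either BRD4884 library. By RPKM, Srxn1 was more than 2-fold above DMSO with CI-994 beside Mt1 and Osgin1 (10.2% of all genes), and with Vorinostat only the pair that had to differ was (10.4%). The median log2 RPKM ratio over all expressed genes was -0.44 with CI-994 and -0.36 with Vorinostat. Centred on that, the ratios of Slc30a1 would be 0.36 and 0.27, and those of Gclm 0.05 and -0.16.

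BTB13120 gave 3 calls above DMSO (Slc30a1, Srxn1 and Txnrd1), with 16.3% of all genes above, and 1 below (Hmox1), with 18.4% below. GNF-5837 gave 3 calls below (Nqo1, Gclc and Txnrd1), with 18% of all genes below.

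Of 8 regulators of the 2 responses, 2 lay more than 2-fold above DMSO by RPKM and 2 below with Vorinostat. The counts were 0 and 2 with CI-994, 2 and 0 with T5985871, and none with AW00693 or the ChemBridge compound. Of all genes, 10.4% lay above and 22.5% below with Vorinostat, 10.2% and 26.1% with CI-994, and 6.05% and 8.41% with T5985871. The 2 regulators below with Vorinostat and with CI-994 are thus near the share of all genes. Nfe2l2, which encodes NRF2, stood at 26.75 RPKM in DMSO and between 25.39 and 32.74 with Vorinostat, CI-994, the ChemBridge compound, T5985871, AW00693, T5635931 and T5758020. Keap1, its inhibitor, was 18.86 RPKM in DMSO and 6.22 with Vorinostat and 8.41 with CI-994, beside medians over all expressed genes of -0.36 and -0.44. Mafg was also more than 2-fold below with both, at 17.87 and 20.43 from 47.57 RPKM, whereas Mafk stood at 16.95 with Vorinostat and 14.51 with T5985871 from 6.69. Maff was 9.39 with Vorinostat, from 4.33, and passed the limit of 5 RPKM only through the compound, so its count lends no support. Mtf1, which encodes the metal sensor, was 27.68 RPKM with T5985871, from 10.44, and Bach1 was within 2-fold in all of these. These are merged values with no replicate error.

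Other NRF2 targets are set beside the background by RPKM. Over all genes, 10.4% lay above 2-fold and 22.5% below with Vorinostat, and 10.2% and 26.1% with CI-994. With T5985871 it was 6.05% and 8.41%, with AW00693 2.53% and 2.57%, and with the ChemBridge compound 1.21% and 1.24%.

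Of the 7 genes of glutathione and cystine handling, 3 lay above 2-fold and 1 below with Vorinostat, 2 above with CI-994, 1 above with the ChemBridge compound, and none with T5985871 or AW00693. The medians of its expressed genes were 0.93, 0.32, 0.50, 0.24 and 0.25 in that order. Medians of all expressed genes were -0.36, -0.44, -0.06, -0.20 and -0.03. With each of these compounds the expressed genes of the list included some that passed the RPKM limit only through the compound. Its medians therefore lend no support. Gsta4, a glutathione transferase, went from 0.26 RPKM to 44.63 with Vorinostat and 27.29 with CI-994, and Gstm1, another, from 6.16 to 68.41 and 42.35. Slc7a11, the cystine importer, was 13.53 RPKM with the ChemBridge compound, from 4.84, and 26.98 with SEW06315. Gsta4 and Slc7a11, the latter being the 1 gene counted with the ChemBridge compound, passed the RPKM limit only through the compounds. Glutathione synthetase Gss was 22.95 with Vorinostat from 10.01, and glutathione reductase Gsr 37.79 from 96.12.

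Of 6 genes of NADPH supply, Tkt lay more than 2-fold below DMSO with Vorinostat and CI-994, at 34.51 and 43.97 from 111.04 RPKM, and Idh1 with T5985871, at 29.88 from 73.78. Of the 12 genes of thioredoxin, iron and other functions, 3 lay above and 1 below with Vorinostat, 1 and 1 with CI-994, 3 and 1 with T5985871, 1 and 0 with the ChemBridge compound, and 0 and 1 with AW00693. The medians of the expressed genes were 0.60, 0.53, 0.34, 0.42 and 0.20. With CI-994, T5985871 and AW00693 they included a gene that passed the RPKM limit only through the compound. Thioredoxin itself, Txn1, was 81.73 with Vorinostat and 98.66 with CI-994, from 262.33 RPKM, opposite to its reductase Txnrd1. The ferritin subunits Ftl1 and Fth1, which store iron, stood at 6654.42 and 1867.49 RPKM with T5985871, from 2735.14 and 781.64. Biliverdin reductase Blvrb, which acts after haem oxygenase, was 7.61 RPKM with T5985871 and 5.56 with AW00693 from 15.85, and 49.34 with Vorinostat.

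Among 17 other zinc genes, 14 of which were expressed, 1 lay above 2-fold with each of Vorinostat, CI-994 and T5985871, and none with AW00693 or the ChemBridge compound. Their medians were -0.32, -0.30, -0.41, -0.01 and 0.13. Mt3, the neuronal metallothionein, went from 6.98 RPKM to 39.25 with CI-994 and 22.73 with Vorinostat. The zinc importer Slc39a1 stood at 52.53 with T5985871, from 25.55. Among 8 heat shock genes, the chaperone genes Hsph1 and Bag3 lay above 2-fold with T5985871, at 375.19 and 203.46 from 151.05 and 61.91 RPKM, and with AW00693, at 323.93 and 136.15. Hsph1 was 71.82 RPKM with CI-994.

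Of 8 integrated stress response genes, 3 lay above and 1 below with T5985871: Atf3 stood at 11.42, Ddit3 at 62.62, Ddit4 at 80.28 and Chac1 at 15.76, from 4.37, 26.69, 28.44 and 35.6 RPKM. Of these, Atf3 passed the RPKM limit only through the compound. Vorinostat had 2 below, Atf4 at 141.88 and Trib3 at 8.74 from 309.01 and 18.11, CI-994 had 1, Atf4 at 152.66, and AW00693 had 1, Chac1 at 11.26. Of the 6 aryl hydrocarbon receptor targets 1 was expressed, Tiparp, at 23.16 with Vorinostat and 24.56 with CI-994 from 10.79. None of the 8 heat shock, 8 integrated stress or 6 aryl hydrocarbon receptor genes passed 2-fold with the ChemBridge compound.

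For compounds of related structure, 2 pairs had been used at the same dose. BRD4884 and BRD6688, both described by the study as derivatives of CI-994, were compared at 10 µM with 2 libraries each, and 5 of 8 members were called, Osgin1 among them. Osgin1 was tested only because treated libraries lifted its mean, so its call is a description and lends no support. Osgin1 was higher with BRD4884 (log2 difference 1.16, 95% interval 0.70 to 1.61, adjusted p = 0.00486), as was Nqo1 (0.68, 0.32 to 1.04, adjusted p = 0.0118). Slc30a1 (-0.68, -1.19 to -0.17, adjusted p = 0.0436), Txnrd1 (-0.39, -0.60 to -0.19, adjusted p = 0.0115) and Gclm (-0.32, -0.50 to -0.13, adjusted p = 0.0163) were lower. Over all genes, 19.8% were called higher with BRD4884 and 11.5% lower. Hmox1 (-0.09 to 0.37), Gclc (-0.23 to 0.08) and Srxn1 (-0.15 to 0.70) were not called, with these intervals. The count, with Osgin1 in it, depended on single libraries: it was 1 without BRD4884 A, without BRD4884 B or without BRD6688 A, and 3 without BRD6688 B.

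RDR00572 and RH01954, both listed by the study under chemical names that end in benzenesulfonamide, were compared at 2.5 µM with 1 library each, and limma called 0 of 8 members and 0% of all genes. At an unadjusted p under 0.05 there were 844 genes, and among the members Srxn1, at 1.84 and 0.838 spliced CPM (log2 difference 0.81, 95% interval 0.21 to 1.41, adjusted p = 0.42). The intervals of the other members all contain 0, and the widest were those of Slc30a1 (-0.07 to 1.37) and Osgin1 (-0.18 to 1.10). CI-994 itself was used at 5 µM and is not compared with the BRD compounds. Its Osgin1 level, 17.1 and 19.5 CPM, stands beside 6.48 and 6.86 with BRD4884 and 2.76 and 2.66 with BRD6688 at 10 µM.

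**Figure D4:**
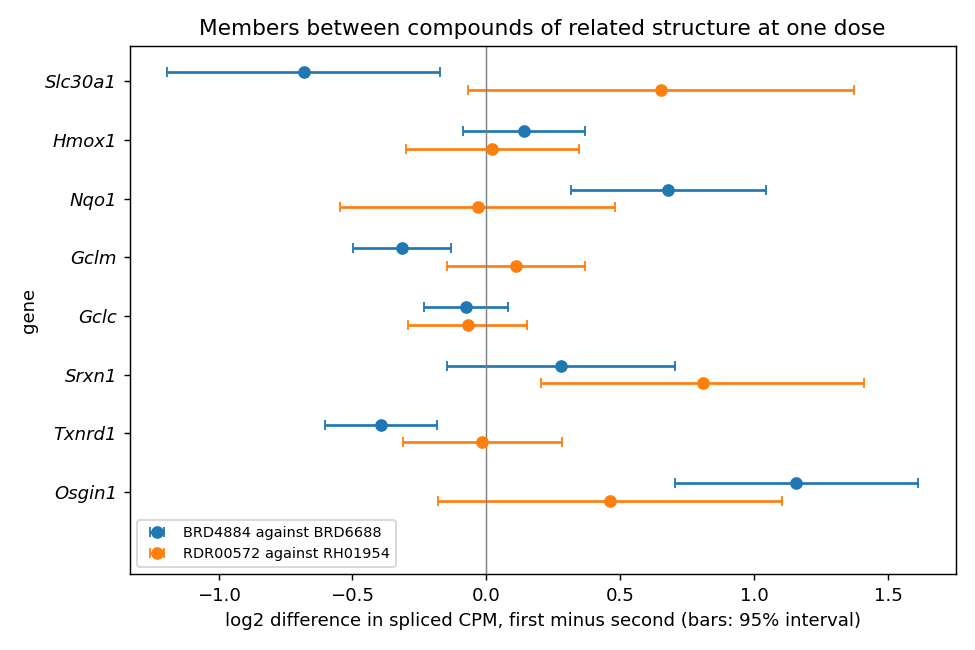
Log2 difference in spliced CPM between the compounds of each pair for the 8 members tested, with 95% intervals from limma, BRD4884 minus BRD6688 in blue and RDR00572 minus RH01954 in orange. The intervals of Osgin1 and Nqo1 lie above 0 and those of Slc30a1, Txnrd1 and Gclm below 0 for the first pair, whereas for the second pair the Srxn1 interval alone leaves 0.

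Splicing of the members themselves was compared for 18 exons in 4 of the genes and 42 introns in 6 of them, those that passed the coverage filters. An event counts as changed with a difference of at least 10 points in percent spliced in (PSI), or percent of intron retained, and every compound library outside the DMSO range. Over 27 compounds, the members gave 468 exon and 1085 intron comparisons. Their exons were changed upwards 6 times among the 468, beside 0.594% of all exon comparisons, and downwards 2 times, beside 0.99%. Introns of the members were more retained 2 times among the 1085, beside 0.594% of all intron comparisons. A 107-nt exon of Txnrd1 at chr10:82323269-82323375 (mm9) made up 7 of the 8 exon changes. It was included at 38.75, 30.19 and 31.87 PSI in DMSO and at 46.58 and 43.41 with BRD6688, 53.34 with BTB13120, 53.47 with GNF-5837, 48.56 with MK-1775, 45.16 with Crenolanib and 44.67 with T5985871. With RH01954 it was included at 22.3. Both Vorinostat libraries, at 20.04 and 27.74, also lay below DMSO, by less than the limit on average.

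**Figure D5:**
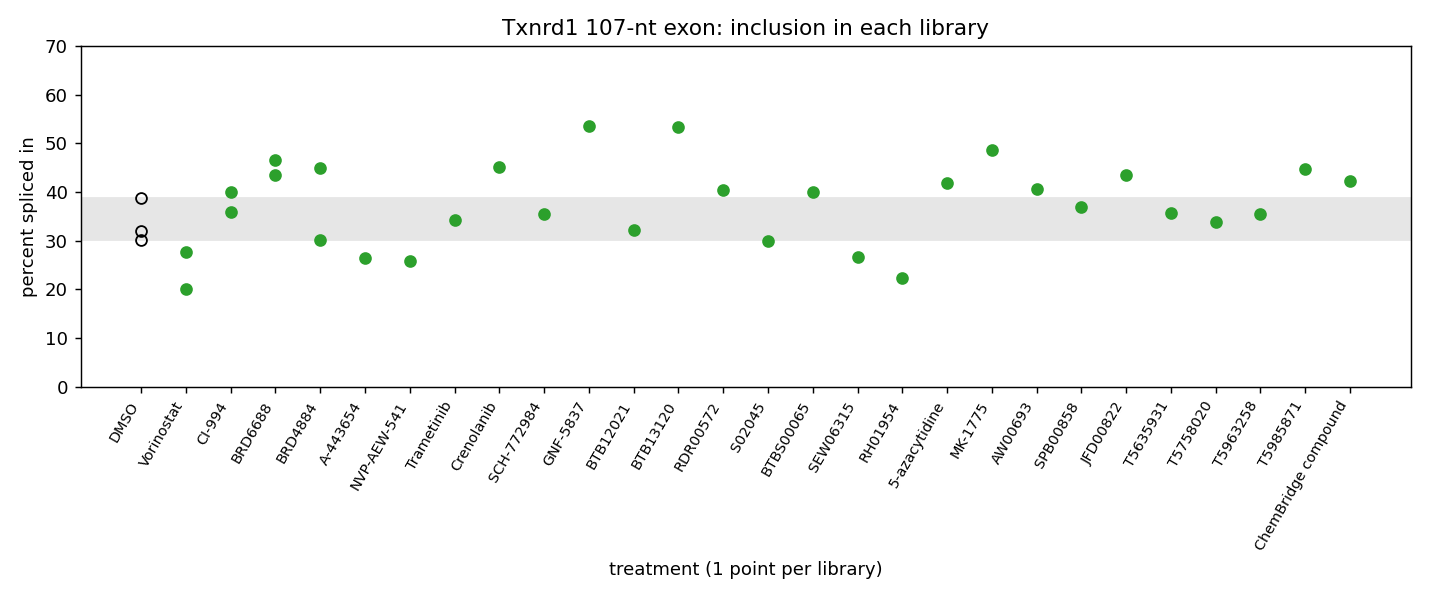
Inclusion of the 107-nt Txnrd1 exon in percent spliced in, with 1 point per library, open circles for DMSO and a grey band for their range. The GNF-5837 and BTB13120 libraries are highest at 53.47 and 53.34, and the lowest is a Vorinostat library at 20.04.

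The exon's level did not go with that of its gene: with BTB13120 Txnrd1 was higher in spliced reads and the exon more included, with GNF-5837 the gene was lower and the exon likewise more included, and with CI-994, where Txnrd1 was highest, the exon was at 35.82 and 40.01 PSI. A 73-nt Txnrd1 exon went from 96.78, 96.9 and 94.86 PSI in DMSO to 85.22 with T5985871. A 3422-nt intron of Gclc was retained at 2.16, 1.5 and 2.33% in DMSO, 13.46% with GNF-5837 on 59 reads, and 13.15% in the CI-994 library that passed the balance filter. The other CI-994 library stood at 9.45%.

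Across the 27 compounds, the genes whose log2 RPKM pattern was most like the mean of Mt1 and Mt2 were Hspa2 (Pearson r 0.90), Txnip (0.88), RP23-25N17.6 (0.88), Col1a1 (0.88) and Mylip (0.87), among 11469 genes above 5 RPKM in any condition. Those most like the mean of Srxn1, Gclm and Txnrd1 were Abhd2 (0.83), Lcor (0.77), Rrm2b (0.75), Limk1 (0.75) and Mbnl2 (0.72). Among the members, Gclc and Txnrd1 were most alike (r 0.82, and 0.77 without the ChemBridge compound), and Mt1 and Gclm least alike (r -0.69). Hmox1 and Srxn1 had r -0.03, and -0.38 without the ChemBridge compound. These describe 27 treatments of 1 cell line that share 1 DMSO value. The Mt1 and Mt2 pattern leans on the few compounds in which either gene was higher, and most of its other values are close to 0.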

How the data were processed

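PolyA+ RNA-seq libraries of N2A cells were grouped by their labels (biological replicates for the HDAC inhibitors, single samples otherwise), and compound names and doses were taken from the study's supplementary tables. The authors deposited RPKM values per condition, replicates merged, from Salmon estimates (0.14.1 in the methods, 0.10.2 in the submitters' processing notes) on GENCODE vM21 transcripts. The authors also deposited percent spliced in (percent, mm9) per library from vast-tools 2.1, with quality strings that hold corrected inclusion and exclusion reads. Deposited log2 fold changes, p-values and FDR of the authors' edgeR test were not used. The members and gene lists were chosen with earlier results of these data known. A splicing score table was not used.

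Exclusion reads of intron events were summed per gene and expressed per 1000000 of the library sum (18096497 to 41427317 reads, median 26904155), which limits precision for low genes. limma 3.58.1 (R 4.3.3; lmFit and eBayes with trend) was fitted over all 34 libraries without covariates, with 6 residual degrees of freedom; a log2 offset of 0.5 was used. It was tested on simulated data. Events needed sufficient coverage and balance, or 15 reads and a balance p above 0.05 for introns. The named genes are the 10 members, the pathway genes changed by the RPKM rule in compounds with at least 2 changed members (at most 6 per list), and the 5 genes most like each pattern; Slc7a11 with SEW06315, Nfe2l2, Bach1 and the markers were named beyond it, with values seen. Alternatives were other offsets, filters, scalings, libraries left out and a replicate block.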

Additional observations from a re-analysis of the deposited data

How the results depend on the processing

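RPKM is 1 value per condition with no spread, and most compounds have 1 library, so low members (Mt1, Mt2, Osgin1, Srxn1, Slc30a1) rest on few reads. Of the recomputed RPKM ratios of changed pairs, 93 stayed past the limit and 3 did not (Nqo1 with GNF-5837 at -0.94 and Srxn1 with A-443654 at -0.99 when centred on the median, Srxn1 with A-443654 at -0.98 with 1 RPKM added); none changed sign. The count of members above 2-fold, 10, was 21 with more than 1 RPKM, 23 with no RPKM limit, 16 centred on the median and 26 at 1.5-fold, and the count below, 6, was 24 at 1.5-fold. Of the recomputed limma differences of called pairs, 681 stayed called, 100 did not and none changed sign. Under median-ratio size factors 10 of 79 were lost, among them Hmox1 with BRD4884 and with BTB13120 (0.14 and -0.31), Gclm with Vorinostat, BTBS00065 and MK-1775, and Nqo1 with T5985871 (-0.42).

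Counts in what follows include Osgin1. With a mean of 5 CPM, which drops Slc30a1, Srxn1 and Osgin1, the calls above fell from 58 to 32, and those for Vorinostat, CI-994, BRD4884 and BRD6688 from 8, 6, 5 and 6 to 5, 3, 3 and 3. With any reads, the calls below fell from 21 to 12; the cause was not tested. Changed member events went from 10 to 2 at 15 points. Leaving out 1 library gave 49 to 67 calls above and 12 to 32 below, 6 to 7 for Vorinostat, 5 to 6 for CI-994, 3 to 4 for BRD4884, 4 to 5 for BRD6688 and 1 to 3 between BRD4884 and BRD6688. The calls below were 12 without DMSO B or DMSO C and 32 without Vorinostat B. Those for BRD4884 were 3 without DMSO A, DMSO B or either of its own libraries.

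The letters A and B are shared by DMSO and the HDAC inhibitors, but nothing says that they mark a shared batch, and over 10 pairs of groups their deviations correlated between -0.24 and 0.05. With the replicate block, the calls were 6, 6, 4 and 5 for Vorinostat, CI-994, BRD4884 and BRD6688 and 4 between BRD4884 and BRD6688.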
